A study of Mus musculus with 10 samples.

Results

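*Ptpn5*, *Tmem86a* and the genes next to them on mouse chromosome 7 were followed through 10 RNA-sequencing libraries of the mammary gland. The list was given as 9 neighbouring genes, of which *Ptpn5* and *Tmem86a* had been picked for low counts in epithelial cells of mice with *Cebpb*-deficient macrophages and the others for their position. Matching by symbol gave a gene ID for 8 of the 9, out of 55487 genes in the count tables. *Igsf22* was not matched and is not analysed here; whether *LOC102637012*, a pseudogene between *Tmem86a* and *Ptpn5* whose counts are given under its own name, corresponds to it was not settled. All mice were 10-wk-old females in diestrus that carried floxed *Cebpb* alleles (*Cebpb* fl/fl), so the controls (WT, *Csf1r*-Cre neg;*Cebpb* fl/fl) differed from the *Cebpb*ΔM mice (*Csf1r*-Cre pos;*Cebpb* fl/fl, "C/EBPb knockdown" in the labels) by the presence of Cre. Both lines had been backcrossed to BALB/c, the floxed line for 10 generations and the *Csf1r*-iCre line by speed congenic breeding. Whether DNA of another strain remained with the transgene was not tested. The Cre transgene is driven by the *Csf1r* promoter, which is active in myeloid cells, and no group carried Cre without floxed alleles, so the transgene itself and the loss of *Cebpb* cannot be told apart. Mammary epithelial cells (MECs), left after removal of lineage-positive cells, gave 2 WT libraries (numbered 1 and 3) and 2 *Cebpb*ΔM libraries (1 and 3). The header of the MEC count table also names a library 2 of each genotype, which was not analysed here. Macrophages, selected with antibody to F4/80, gave 2 WT libraries (4 and 5) and 4 *Cebpb*ΔM libraries (4 to 7). The sources used here do not say that libraries came from separate animals, so *P* values measure the spread between these libraries only, which may be technical.

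Genes that lie close together can share regulatory elements, because an enhancer may act on several promoters within a stretch of chromatin. Whether a change stops at the gene or runs over its neighbours is therefore a common question about a locus. The 8 genes serve different functions. *Ptpn5* encodes STEP, a tyrosine phosphatase studied mostly in neurons, where it dephosphorylates MAP kinases, the kinases FYN and PYK2 and glutamate receptor subunits. *Tmem86a* encodes a lysoplasmalogenase of the endoplasmic reticulum that cleaves the vinyl ether bond of lysoplasmalogens and is known as a target of liver X receptors in macrophages. The others are a subunit of an endosomal sorting complex and a relative of it (*Tsg101*, *Uevld*), the muscle-type lactate dehydrogenase (*Ldha*), a subunit of a general transcription factor (*Gtf2h1*), a histone chaperone (*Spty2d1*) and a trafficking protein for lysosome-related organelles (*Hps5*).

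On GRCm38, in the coordinates of the count tables, the 8 genes spanned 373 kb of chromosome 7, from 46760466 to 47133684. In order of start they were *Hps5* (minus strand), *Gtf2h1* (plus), *Ldha* (plus), *Tsg101* (minus), *Uevld* (minus), *Spty2d1* (minus), *Tmem86a* (plus) and *Ptpn5* (minus). *Tmem86a* (ENSMUSG00000010307, 47050601 to 47054777) and *Ptpn5* (ENSMUSG00000030854, 47077795 to 47133684) are next to each other among the listed genes and transcribed toward each other, with 23.0 kb between their 3′ ends, so their promoters lie at opposite ends of an 83.1-kb stretch. *Spty2d1*, the next listed gene on the *Tmem86a* side, begins 42.2 kb from the start of *Tmem86a* and is transcribed away from it. To show the DNA in front of the pair, the bases before each gene's start in the count tables are printed 5′ to 3′ on the strand of the gene, from RefSeq promoter windows on GRCm38.p6 that matched all 8 genes. The *Tmem86a* stretch is 211 bases at chr7:47050390-47050600 (plus strand) and the *Ptpn5* stretch 250 bases at chr7:47133685-47133934 (minus strand).

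*Tmem86a*: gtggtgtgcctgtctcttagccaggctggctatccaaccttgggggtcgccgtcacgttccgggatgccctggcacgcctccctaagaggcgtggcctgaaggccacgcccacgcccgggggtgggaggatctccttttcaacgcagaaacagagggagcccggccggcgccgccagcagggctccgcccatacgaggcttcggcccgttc

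*Ptpn5*: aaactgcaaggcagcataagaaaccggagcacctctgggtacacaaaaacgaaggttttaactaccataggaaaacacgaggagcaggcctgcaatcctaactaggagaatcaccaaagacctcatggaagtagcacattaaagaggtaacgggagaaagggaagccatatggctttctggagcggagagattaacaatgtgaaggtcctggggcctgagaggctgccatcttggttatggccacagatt

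The *Tmem86a* stretch held 68.2% G or C and the *Ptpn5* stretch 48.0%, against a median of 52.4% over 32851 windows of 250 bases before a RefSeq start. Neither held TTNNGNAA, the core letters of the motif that C/EBP proteins bind, or its reverse complement TTNCNNAA, which is why no base is in capitals. These letters occurred in 36.8% of all 32851 windows and in 1 of the 10 windows of the 8 genes, before a second RefSeq start of *Ldha*. RefSeq also gave a second start for *Ptpn5* at 47132598, inside the span of the gene, and its window held no match either. Of the genes that begin back to back, *Hps5* and *Gtf2h1* were the closest, with 38 bases between their starts in the count tables at chr7:46796065-46796102 (plus strand).

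*Hps5*–*Gtf2h1*: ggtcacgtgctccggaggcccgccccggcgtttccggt

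In MECs *Ptpn5* and *Tmem86a* were lower in *Cebpb*ΔM than in WT, and no other gene of the set was lower by as much as 2-fold. Because this comparison picked the pair, it is given as a description, with no *P* for any of the 8 genes. Levels are given as CPM, read counts normalised to library size, with trimmed mean of M-values (TMM) scaling within the experiment and ± SD over libraries. *Ptpn5* was at 158 and 68.2 CPM in WT 1 and 3 and at 7.27 and 21.5 CPM in *Cebpb*ΔM 1 and 3. Both *Cebpb*ΔM libraries were below both WT libraries, although replicates of the same genotype differed by 2.31-fold in WT and 2.95-fold in *Cebpb*ΔM. The group means were 113 ± 63.4 CPM in WT and 14.4 ± 10.03 CPM in *Cebpb*ΔM (n = 2 each), a log2 fold change of -2.97 ± 0.49 (SE), or 12.7% of the WT level.

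*Tmem86a* was at 288 and 114 CPM in WT 1 and 3 and at 28.8 and 45.3 CPM in *Cebpb*ΔM 1 and 3. The genotypes did not overlap here either, and WT 1 was the highest and *Cebpb*ΔM 1 the lowest library for both genes. The means were 201 ± 123 CPM in WT and 37.1 ± 11.7 CPM in *Cebpb*ΔM (n = 2 each), a log2 fold change of -2.44 ± 0.39 (SE), or 18.5% of WT. By size alone *Ptpn5* ranked as the 5th and *Tmem86a* as the 9th lowest log2 fold change of the 15698 genes tested in MECs. These are bulk samples, in which fewer cells of a type and less RNA per cell cannot be told apart. The size rested in part on 1 library, since without WT 1 the log2 fold change was -2.25 for *Ptpn5* and -1.62 for *Tmem86a*, and without *Cebpb*ΔM 3 that of *Ptpn5* was -3.96.

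**Figure D1:**
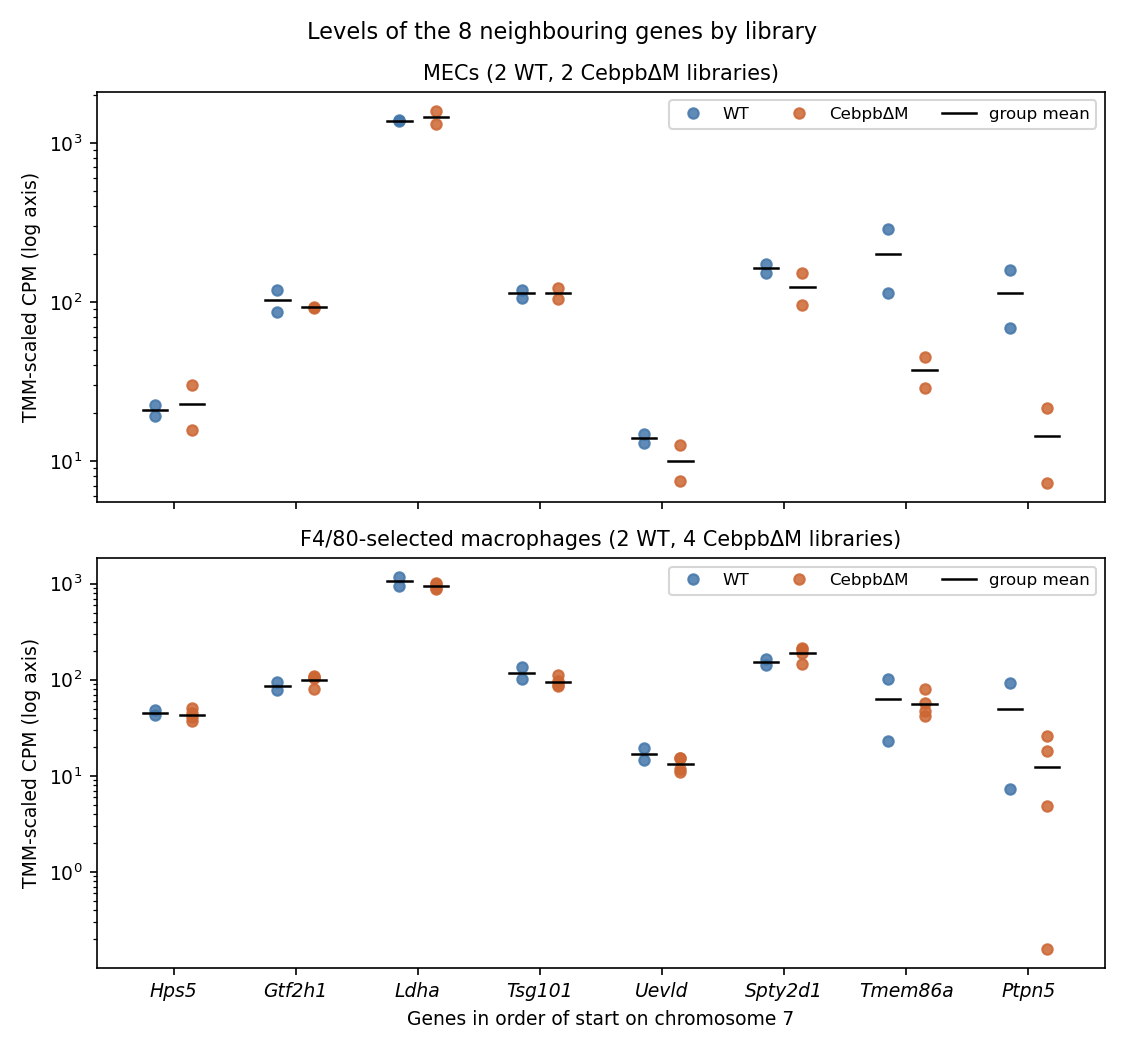
TMM-scaled CPM (log axis) of the 8 genes in order of start, in MECs (top) and macrophages (bottom); each point is a library (blue WT, orange *Cebpb*ΔM) and each bar a group mean. In MECs the 2 *Cebpb*ΔM libraries lay below both WT libraries for *Tmem86a* and *Ptpn5* and, by less, for *Uevld*, whereas in macrophages the genotypes overlapped for all 8 genes.

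The neighbours nearest to *Tmem86a* came next in size, well behind it. *Spty2d1*, which encodes a chaperone of histones H3 and H4, was at 173 and 151 CPM in WT 1 and 3 and at 96.1 and 153 CPM in *Cebpb*ΔM 1 and 3. *Cebpb*ΔM 3 lay between the WT libraries, so only *Cebpb*ΔM 1 was low, and the log2 fold change was -0.38 ± 0.25 (SE). *Uevld*, which joins a ubiquitin E2 variant domain to a lactate dehydrogenase-like domain, was at 14.8 and 13.1 CPM in WT 1 and 3 and at 7.501 and 12.5 CPM in *Cebpb*ΔM 1 and 3. Its genotypes did not overlap, by a margin of 13.1 against 12.5 CPM, and its log2 fold change was -0.48 ± 0.30 (SE). Without *Cebpb*ΔM 1 these log2 fold changes were -0.09 for *Spty2d1* and -0.15 for *Uevld*, and without *Cebpb*ΔM 3 they were -0.76 and -0.90.

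The 4 genes farther away differed little between the group means. *Tsg101*, a subunit of ESCRT-I that sorts ubiquitinated cargo at endosomes, had means of 113 ± 9.05 CPM in WT and 114 ± 13.5 CPM in *Cebpb*ΔM (log2 fold change 0.01 ± 0.21 SE). *Ldha*, which interconverts pyruvate and lactate, had means of 1378 ± 9.75 and 1453 ± 197 CPM (0.08 ± 0.23). *Gtf2h1*, the p62 subunit of TFIIH, had means of 102 ± 23.5 and 92.4 ± 1.49 CPM (-0.15 ± 0.22). *Hps5*, a subunit of the BLOC-2 complex, had means of 20.8 ± 2.43 and 22.8 ± 10.1 CPM (0.13 ± 0.31), with both WT libraries between *Cebpb*ΔM 1 at 15.7 CPM and *Cebpb*ΔM 3 at 30.0 CPM. The *Hps5* log2 fold change turned from 0.13 to -0.41 without *Cebpb*ΔM 3, and that of *Gtf2h1* from -0.15 to 0.12 without WT 3.

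The median log2 fold change of the 6 neighbours other than *Ptpn5* and *Tmem86a* was -0.07 in MECs, 3 of 6 being below 0, and the median of all 15698 genes tested was -0.01. Without *Cebpb*ΔM 3 the neighbours' median was -0.27. A log2 fold change of -1 or less was found for 2 of the 8 genes, both of them the genes picked for it, and for 0.809% of all genes tested. The genotypes did not overlap for 3 of the 8 genes (*Ptpn5*, *Tmem86a* and *Uevld*), against 28.7% of all genes tested. At a Benjamini–Hochberg adjusted *P* of 0.05 in the quasi-likelihood (QL) test of edgeR, 8 of 15698 genes (0.051%) were called, and none of the 8 neighbouring genes was among them; 851 genes had an unadjusted *P* under 0.05. That number of calls depended on single libraries, with 42 genes called without *Cebpb*ΔM 1, 337 without *Cebpb*ΔM 3, 98 without WT 1 and 2 without WT 3. The likelihood ratio test called 179 genes, among them *Ptpn5* and *Tmem86a*, and DESeq2 called 161, among them *Tmem86a*. As the pair was picked from this comparison, nothing is read from these counts about the listed genes.

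**Figure D2:**
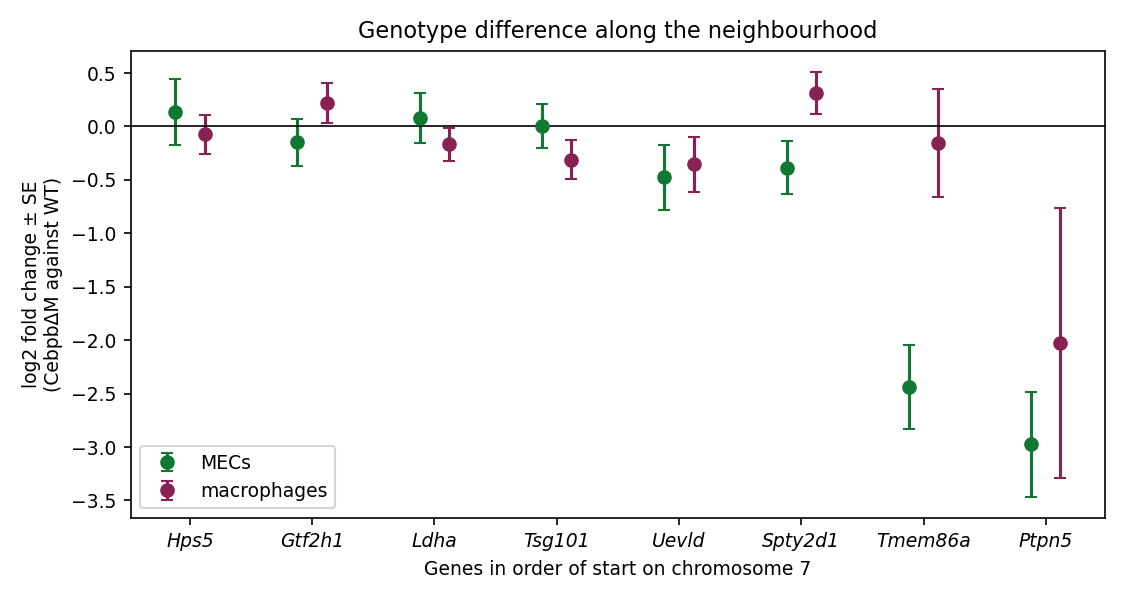
Log2 fold change of *Cebpb*ΔM against WT ± SE (vertical axis) for the 8 genes in order of start, in MECs (green) and macrophages (purple). In MECs the values run from 0.13 at *Hps5* to -0.48 at *Uevld* and -0.38 at *Spty2d1*, followed by -2.44 at *Tmem86a* and -2.97 at *Ptpn5*.

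The annotation holds 15 more genes inside the span, of which 12 were tested in neither experiment. They were under 300 nt long or too low in counts to pass the filter, and had at most 18 reads in any library. These were *Ldhc*, the testis lactate dehydrogenase, with 1 to 12 reads, *Mir7056*, *C86187*, *LOC102637012* and the predicted genes *Gm45309*, *Gm45308*, *Gm45628*, *Gm45737*, *Gm19248*, *Gm31941*, *Gm9999* and *Gm45474*. *LOC102637012*, which lies between *Tmem86a* and *Ptpn5* on the minus strand, had 0 reads in both *Cebpb*ΔM MEC libraries and 3 and 4 reads in WT 1 and 3, too few to compare. The other 3 were each on the strand opposite to a listed gene. *Gm14377*, inside *Ptpn5* with no shared exon base, had 56 and 37 reads in WT MECs 1 and 3 and 11 and 27 reads in *Cebpb*ΔM 1 and 3. Its genotypes did not overlap, and its log2 fold change in MECs was -1.29 ± 0.55 (SE). *Gm32031*, which shares 329 exon bases with the 5′ end of *Spty2d1*, had a log2 fold change of -0.33 ± 0.26 (SE) in MECs, and *Gm9392*, in *Gtf2h1*, had 0.53 ± 0.51. The authors counted reads on the reverse strand, and the sources used here do not state whether the library kit marks strand, so reads of a gene and of its antisense partner may not be separable.

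Outside the set, few expressed genes lie close to *Ptpn5*. The 3 nearest genes tested in both experiments on the *Hps5* side were *Saal1*, *Gm45629* and *Tph1*, the rate-limiting enzyme of serotonin synthesis outside the brain. They ended 49.8, 75.1 and 87.9 kb before *Hps5*, with log2 fold changes in MECs of -0.23 ± 0.25, 0.37 ± 0.48 and 0.49 ± 0.36 (SE). On the *Ptpn5* side the nearest were *Zdhhc13*, a palmitoyltransferase gene, *E2f8*, which encodes a transcriptional repressor of the E2F family, and *Nav2*, at distances of 1.66, 1.73 and 1.78 Mb, with log2 fold changes of 0.03 ± 0.24, 0.07 ± 0.45 and 0.13 ± 0.20 (SE). Over the window from 2 Mb before the first to 2 Mb after the last start, 229 genes are annotated and 91 were tested in MECs. Apart from the 8 listed genes, 83 were tested, with log2 fold changes from -1.29 to 0.68 and a median of 0.06, and only *Gm14377* was at -1 or less. Along the whole of chromosome 7 the same bound was reached by 11 of 1187 genes tested (0.927%).

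**Figure D3:**
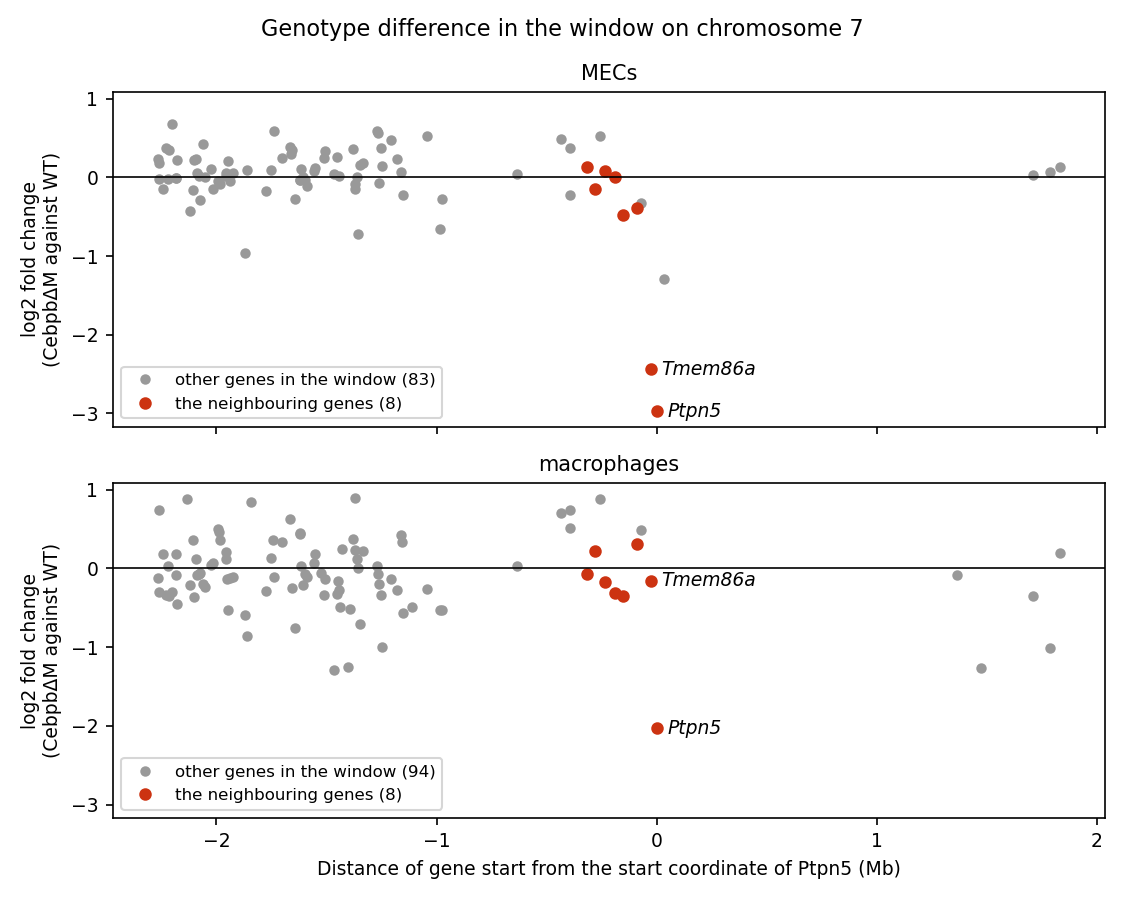
Log2 fold change of *Cebpb*ΔM against WT for every gene tested in the window, against the distance of its start from the start coordinate of *Ptpn5* (Mb), in MECs (top) and macrophages (bottom); red points are the 8 listed genes. In MECs the 83 other genes lie between -1.29 and 0.68, and *Tmem86a* and *Ptpn5* stand below them at -2.44 and -2.97.

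In macrophages, whose libraries the picking did not use, none of the 8 genes passed the edgeR QL test, and 0 of 8 had an unadjusted *P* under 0.05. *Ptpn5* was at 7.31 and 92.4 CPM in WT 4 and 5 and at 0.156, 4.80, 18.2 and 25.9 CPM in *Cebpb*ΔM 4, 5, 6 and 7. WT 4 lay among the *Cebpb*ΔM libraries and only WT 5 lay above them all, so the genotypes overlapped; *Cebpb*ΔM 4 had 3 reads of *Ptpn5*, which is at the floor of 3 counts. The log2 fold change was -2.03 ± 1.26 (SE; edgeR QL test, adjusted *P* = 0.700), and it was 0.74 without WT 5. With the replicate number as a block it was -4.56 (edgeR QL test, adjusted *P* = 0.0132). The contrast of that fit rests on the pairs numbered 4 and 5 alone, which leave little to estimate the spread from. *Cebpb*ΔM 4, with its 3 reads, is in one of these pairs, and no source ties the numbers to a litter, batch or day.

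*Tmem86a* was at 23.2 and 103 CPM in WT 4 and 5 and at 42.0, 47.6, 79.6 and 57.1 CPM in *Cebpb*ΔM 4, 5, 6 and 7. Here WT 4 was the lowest and WT 5 the highest of the 6 libraries. The log2 fold change was -0.15 ± 0.51 (SE; edgeR QL test, adjusted *P* = 0.967), and it turned to 1.29 without WT 5 (adjusted *P* = 0.430). The WT libraries differed from each other by 12.7-fold for *Ptpn5* and 4.43-fold for *Tmem86a*, more than for any of the 6 neighbours, whose WT libraries differed by 1.13- to 1.36-fold.

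The neighbours were measured more evenly in macrophages. Their log2 fold changes ran from -0.36 ± 0.26 (SE) for *Uevld* and -0.31 ± 0.18 for *Tsg101* to 0.22 ± 0.19 for *Gtf2h1* and 0.32 ± 0.19 for *Spty2d1* (edgeR QL test, adjusted *P* from 0.688 to 0.956 over the 6 genes). *Ldha* was at -0.17 ± 0.15 and *Hps5* at -0.07 ± 0.18 (SE), the latter turning to 0.02 without WT 5. *Spty2d1* thus had opposite signs in the cell types, at -0.38 in MECs and 0.32 in macrophages. The median of the 6 was -0.12, beside 0.00 for all 17772 genes tested. The genotypes overlapped for all 8 genes, against 18.8% of all genes without overlap, and a log2 fold change of -1 or less was found for 1 of the 8 (*Ptpn5*), against 3.47% of all genes tested. The edgeR QL test called 0 of 17772 genes (0.0%) in macrophages, where 1534 had an unadjusted *P* under 0.05, the likelihood ratio test called 138 and DESeq2 called 201, none of them a gene of the set. Within the span, *Gm32031* was at 0.49 ± 0.27 (SE; edgeR QL test, adjusted *P* = 0.652) and *Gm9392* at 0.89 ± 0.47 (adjusted *P* = 0.645). Of the nearest genes outside it, *Saal1*, *Gm45629* and *Tph1* were at 0.51, 0.74 and 0.70 and *Zdhhc13*, *E2f8* and *Nav2* at -0.35, -1.01 and 0.20 (edgeR QL test, adjusted *P* from 0.719 to 0.881).

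As a description, the genotype effect in macrophages minus that in MECs, from a fit over all 10 libraries, was 2.34 ± 0.82 (SE, log2) for *Tmem86a* and 1.01 ± 1.80 for *Ptpn5*. For the 6 neighbours it ranged from -0.28 ± 0.27 for *Tsg101* to 0.75 ± 0.33 for *Spty2d1*. No test is attached, since the MEC part of each difference comes from the comparison that picked the pair.

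Epithelial markers were detected in the F4/80-selected libraries. The summed level of 7 luminal markers (*Epcam*, *Krt8*, *Krt18*, *Krt19*, *Cldn3*, *Cldn4* and *Elf5*) was 28215 to 35458 CPM in MECs, 9554 to 9576 CPM in WT macrophages and 5068 to 6446 CPM in *Cebpb*ΔM macrophages, scaled over all 10 libraries. All 7 were detected in every library, and in macrophages 6 of 7 had lower means in *Cebpb*ΔM. The edgeR QL test called 0 of 7 (3 with an unadjusted *P* under 0.05), and the likelihood ratio test and DESeq2 each called 2, *Krt8* and *Krt18*. All 7 basal markers instead had higher fitted means in *Cebpb*ΔM macrophages, at 729 to 3043 CPM summed against 802 to 1240 CPM in WT. The edgeR QL test, the likelihood ratio test and DESeq2 each called 0 of these 7, with an unadjusted *P* under 0.05 for 0, 1 and 2 of them. The 9 macrophage markers summed to 7728 to 8311 CPM in WT macrophages, 9180 to 13926 CPM in *Cebpb*ΔM macrophages and 212 to 394 CPM in MECs, where *Adgre1*, the gene of F4/80, had 0 to 13 reads. The luminal markers did not move alike in MECs. *Epcam* had 23597 and 45196 reads in WT 1 and 3 and 72698 and 49988 in *Cebpb*ΔM 1 and 3. *Krt19* went the other way, with 160294 and 204547 reads in WT and 143242 and 156078 in *Cebpb*ΔM. Counts of the other luminal markers overlapped between the genotypes there. Relative to luminal RNA, *Ptpn5* was at 5.96 and 2.02 CPM per 1000 CPM of luminal markers in WT MECs 1 and 3 and at 0.220 and 0.774 in *Cebpb*ΔM MECs 1 and 3. In macrophages the same ratio was 0.731 and 9.25 in WT 4 and 5 and 0.0247, 0.895, 3.51 and 3.90 in *Cebpb*ΔM 4, 5, 6 and 7. Between WT 4 and WT 5, *Ptpn5* differed by 12.7-fold. Their luminal sums were 9576 and 9554 CPM and their summed basal markers 1240 and 802 CPM. For *Tmem86a* the ratio was 10.9 and 3.36 in WT MECs, 0.871 and 1.63 in *Cebpb*ΔM MECs, 2.32 and 10.3 in WT macrophages and 6.63, 8.88, 15.4 and 8.61 in *Cebpb*ΔM macrophages 4, 5, 6 and 7. Summed fibroblast markers (5 genes, 3080 to 7241 CPM), endothelial markers (3 genes, 487 to 1119 CPM) and lymphocyte markers (6 genes, 2.82 to 8.07 CPM) overlapped between the genotypes in macrophages. The MEC libraries also held fibroblast RNA, with summed markers at 5100 to 6226 CPM in WT and 5060 to 6043 CPM in *Cebpb*ΔM. The 5 genes in this sum did not move alike. *Dcn* had 32106 and 32050 reads in WT MECs 1 and 3 and 72269 and 52868 in *Cebpb*ΔM MECs 1 and 3. *Col1a1*, *Col1a2*, *Col3a1* and *Pdgfra* instead had their lowest MEC count in *Cebpb*ΔM 1. Endothelial markers in MECs were at 45.7 to 62.5 CPM in WT and 42.1 to 59.2 CPM in *Cebpb*ΔM. What part of the macrophage values of *Ptpn5* and *Tmem86a* comes from epithelial RNA was not tested.

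**Figure D4:**
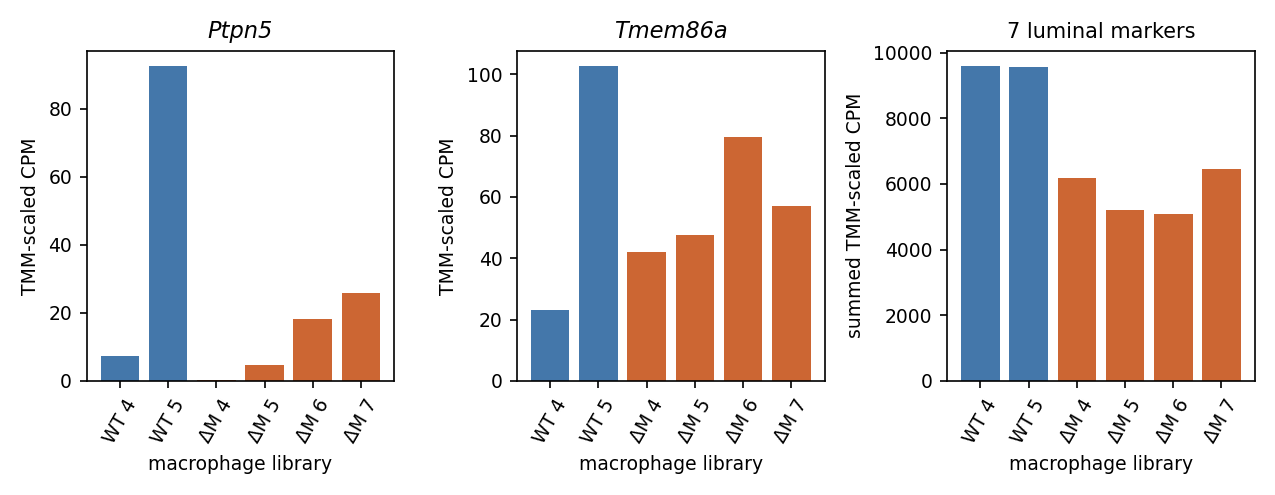
*Ptpn5* and *Tmem86a* (TMM-scaled CPM within the macrophage experiment) and the summed level of 7 luminal markers (CPM scaled over all 10 libraries) in each macrophage library; blue bars are WT and orange bars *Cebpb*ΔM (ΔM), without replicate error because each bar is 1 library. WT 5 has the highest *Ptpn5* and *Tmem86a*. The luminal sum is 9576 CPM in WT 4 and 9554 CPM in WT 5, and the epithelial share of the macrophage values was not tested.

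*Cebpb*, the targeted gene, could check the labels only weakly. It had 25 and 28 reads in WT MECs, 69 and 42 in *Cebpb*ΔM MECs, 13 and 15 in WT macrophages and 4 to 16 in *Cebpb*ΔM macrophages. Every macrophage library was below 1 CPM, so the gene did not pass the filter there. It was at 0.678 and 0.745 CPM in WT 4 and 5. In *Cebpb*ΔM 4, 5, 6 and 7 it was at 0.835, 0.650, 0.276 and 0.247 CPM. *Cebpb*ΔM 4 was thus the highest macrophage library, and *Cebpb*ΔM 5 lay just below WT 4. The total counts were 25310926 to 27008166 per MEC library and 16935000 to 20174722 per macrophage library, so a count of 3 was 0.111 to 0.177 CPM.

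Compared per length, as CPM per kb of exon scaled over all 10 libraries, *Ldha* was the highest of the 8 genes in every group. In WT MECs the order of the means was *Ldha* at 440 ± 8.21, *Tmem86a* at 113 ± 70.3, *Tsg101* at 43.7 ± 2.999, *Gtf2h1* at 36.2 ± 7.89, *Spty2d1* at 25.3 ± 2.74, *Ptpn5* at 20.7 ± 11.8, *Hps5* at 3.39 ± 0.43 and *Uevld* at 1.95 ± 0.20 CPM per kb (SD, n = 2). *Tsg101* and *Gtf2h1* overlapped in range, as did *Spty2d1* and *Ptpn5*, while *Ldha* and *Tmem86a* each stood clear of the genes after them. In *Cebpb*ΔM MECs *Tmem86a* was at 20.4 ± 5.97 and came after *Tsg101* and *Gtf2h1*, and *Ptpn5* at 2.56 ± 1.74 came after *Hps5* at 3.64 ± 1.53 CPM per kb.

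Between WT macrophages and WT MECs, *Hps5* alone of the 6 neighbours passed the edgeR QL test, being higher in macrophages. It was at 6.32 and 7.10 CPM per kb in WT macrophages 4 and 5 and at 3.69 and 3.08 in WT MECs 1 and 3, without overlap, a log2 difference of 0.99 ± 0.29 (SE; edgeR QL test, adjusted *P* = 0.0272). Against this, 25.5% of the 18323 genes tested were called. The call was lost without MEC WT 1, MEC WT 3 or macrophage WT 5 (edgeR QL test, adjusted *P* = 0.0776, 0.167 and 0.0916), and without these libraries 2733, 2456 and 3041 genes were called in place of 4664. Of the other 5 neighbours, *Ldha* was at -0.52 ± 0.19 (SE; edgeR QL test, adjusted *P* = 0.0735; DESeq2, adjusted *P* = 0.0169), and *Gtf2h1*, *Tsg101*, *Uevld* and *Spty2d1* lay between -0.40 and 0.15 (edgeR QL test, adjusted *P* from 0.213 to 0.842). *Tmem86a* and *Ptpn5* are described without a test, since the WT MEC libraries are an arm of the comparison that picked them. *Tmem86a* was at a log2 difference of -1.82 ± 0.62 (SE), which was -0.99 without MEC WT 1, -2.35 without MEC WT 3, -1.07 without macrophage WT 4 and -3.22 without macrophage WT 5. *Ptpn5* was at -1.33 ± 1.35 (SE), which was -0.58 without MEC WT 1, -1.82 without MEC WT 3, -0.39 without macrophage WT 4 and -4.05 without macrophage WT 5. Cell type, isolation and experiment cannot be told apart in this comparison.

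Partner genes from the complex or pathway of the listed genes other than *Uevld*, in lists without the gene itself, give the setting. Between the genotypes, the edgeR QL test called 0 of 42 tested partners in MECs and 0 of 44 in macrophages, with an unadjusted *P* under 0.05 for 3 in each. DESeq2 called 0 in both, and the likelihood ratio test called 0 in macrophages and 1 in MECs, *Ldhd*, a D-lactate dehydrogenase, named after its value was seen. The partners of *Ptpn5* (other phosphatases of MAP kinases and the kinases STEP acts on) had a median log2 fold change of 0.07 over 5 tested genes in MECs and of 0.06 over 7 in macrophages. The partners of *Tmem86a* (its paralog *Tmem86b* and genes of sterol sensing and export) had medians of -0.04 and 0.01 over 7 genes. Those of *Tsg101* (ESCRT-I) were at -0.01 and 0.05 over 7 genes, of *Gtf2h1* (TFIIH) at 0.00 and -0.26 over 9, of *Spty2d1* (chaperones of histones H3 and H4) at 0.09 and -0.15 over 8, of *Ldha* (lactate dehydrogenases and transporters) at 0.00 and -0.07 over 4, and of *Hps5* (BLOC-2) at -0.02 and 0.02 over 2. Between WT macrophages and WT MECs, where 25.5% of all genes tested were called (2703 higher and 1961 lower in macrophages), 5 of 7 partners of *Ptpn5* and 4 of 7 of *Tmem86a* were called higher in macrophages and 1 of 7 of *Tmem86a* lower, while 4 of 7 partners of *Tsg101* and 2 of 9 of *Gtf2h1* were called lower and 1 of 2 of *Hps5* higher. None of the 4 partners of *Ldha* or the 8 of *Spty2d1* was called there.

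Across the 10 libraries, after centring log2 CPM within each cell type, *Tmem86a* had a Pearson *r* of 0.64 with *Ptpn5*, and the 6 neighbours had *r* from -0.48 for *Ldha* to 0.27 for *Gtf2h1*. Many other genes were closer to *Ptpn5*, since *Tmem86a* ranked 972 among 18322 genes by *r* with it. With *Tmem86a*, *r* was 0.50 for *Uevld*, 0.40 for *Spty2d1*, 0.17 for *Gtf2h1* and 0.13 for *Hps5*. It was -0.47 for *Tsg101* and -0.54 for *Ldha*. By *r* with *Tmem86a*, *Ptpn5* ranked 469, *Uevld* 1320 and *Spty2d1* 2284 among the 18322 genes. The 5 genes most like *Ptpn5* were *Glns-ps1* (*r* = 0.98), *Itpripl1* (0.96), *St3gal1* (0.96), *Heg1* (0.95) and *Rasgrf1* (0.95). The 5 most like *Tmem86a* were *Pcx* (*r* = 0.94), *Chst7* (0.92), *Espl1* (0.89), *Inpp1* (0.89) and *Ahcyl2* (0.88). None of these 10 genes lies on chromosome 7. The libraries share genotype and isolation, and the 4 MEC libraries on which *Ptpn5* and *Tmem86a* were picked enter every *r*, so the *r* between the pair is built in part from the picking, and these values describe likeness in this set of libraries only.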

How the data were processed

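RNA was sequenced in 10 libraries, 4 from MECs and 6 from macrophages, with paired-end reads of 150 bp. The authors trimmed reads with Trimmomatic, aligned them to GRCm38 with HISAT2 and ran featureCounts (version 1.6.2) on Ensembl release 100, keeping read pairs aligned at both ends with a mapping quality of 10 or more and counting the reverse strand. The deposited values are raw counts per gene, and 55141 of the 55487 genes had a symbol in GENCODE. Genes under 300 nt long were dropped, as were those not exceeding 1 CPM in 2 or more libraries. MECs and macrophages were fitted apart in edgeR (version 4.0.16, R 4.3.3) with TMM normalization and the QL test, adjusting *P* across every tested gene (Benjamini–Hochberg, 0.05). WT macrophages and WT MECs were compared in a fit of all 10 libraries to 18323 genes. The study's methods name the likelihood ratio test, run here as an alternative with DESeq2 (version 1.42.0), other normalizations and filters, a replicate block and each library left out. Log2 CPM used a prior count of 2. Promoter windows were read from RefSeq.

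The genes and lists were chosen with earlier results of these data known. The named genes are the listed genes, all other annotated genes within the span, the 3 nearest tested genes on each side, the 5 genes most alike to *Ptpn5* and to *Tmem86a*, *Cebpb*, and any partner called in macrophages. *Adgre1* and the luminal and fibroblast markers were named as part of their marker lists, *Tmem86b* as a paralog, and *Gm14377* and *Mir7056*, which start after *Ptpn5* does, as genes inside its span, after their values were seen. *Dkkl1* was also named after its value was seen. Each SD is the spread between libraries. Each SE is the size of the log2 fold change divided by the square root of the *F* statistic of the edgeR QL test. That statistic draws on the spread of all genes tested, not of the gene alone. Intervals are not given for single counts, and the floor of 3 counts covers counting error only.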

Additional observations from a re-analysis of the deposited data

Results flagged for a closer look

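Among the 4 *Cebpb*ΔM macrophage libraries, 15 sets of values (the 8 listed genes and 7 marker lists) were checked for a library that stands apart by Dixon's test, and chance flags about 1 in 20 such groups. *Gtf2h1* was at 80.1 CPM in *Cebpb*ΔM 4 and at 104 to 108 CPM in the other three, so that the gap to the nearest library was 0.860 of the range. The summed milk protein markers (*Csn2*, *Csn1s1*, *Csn3* and *Wap*) were at 747 CPM in *Cebpb*ΔM 4 and at 60.1 to 121 CPM in the others, with a gap of 0.911 of the range. *Cebpb*ΔM 4 is also the library with 3 reads of *Ptpn5*.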

How the results depend on the processing

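The direction of *Ptpn5* and *Tmem86a* in MECs was the same in all 11 alternatives. These reuse the libraries that picked the pair, in which the genotypes did not overlap, so nothing is read from that sameness. In macrophages the direction of *Ptpn5* and *Tmem86a* was the same in 14 of 15 alternatives, the exception being the fit without WT 5. Leaving out a library gave log2 fold changes in MECs from -3.96 to -2.25 for *Ptpn5*, from -2.94 to -1.62 for *Tmem86a* and from -0.27 to 0.063 for the neighbours' median, and in macrophages from -2.92 to 0.74 for *Ptpn5*, from -0.86 to 1.29 for *Tmem86a* and from -0.16 to 0.017 for *Hps5*. Genes called in MECs, 8 with the QL test, were 179 by the likelihood ratio test, 161 by DESeq2, 0 with library totals only (805 with an unadjusted *P* under 0.05), 38 without a filter on low counts and 2 to 337 with a library left out. Genes called in macrophages, 0 with the QL test, were 138 by the likelihood ratio test and 201 by DESeq2, and genes called between the cell types, 4664, were 2456 to 4588 with a library left out, 5524 by the likelihood ratio test and 5697 by DESeq2. For *Tsg101* between the cell types the log2 difference turned from -0.07 to 0.11 with library totals only and spanned -0.24 to 0.16 with a library left out, and for *Uevld* it spanned -0.046 to 0.39. With the luminal markers as a covariate, chosen after seeing the data, *Ptpn5* in macrophages was at -7.53 (adjusted *P* = 0.178), *Tmem86a* at -0.90 (adjusted *P* = 0.569), *Hps5* turned to 0.064 and *Gtf2h1* to -0.10; with replicates 4 and 5 only, also chosen then, *Ptpn5* was at -4.30 (adjusted *P* = 0.535). The causes of these shifts were not tested.

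The replicate block rests on numbers that no source ties to a litter, batch or day, and libraries with the same number deviated together weakly (*r* = 0.10 in MECs, 0.12 for number 4 and -0.08 for number 5 in macrophages). With the block, 205 genes were called in MECs and 12 in macrophages. *Ptpn5* in macrophages was then at -4.56 (edgeR QL test, adjusted *P* = 0.0132), with libraries 6 and 7 of *Cebpb*ΔM adding nothing to the contrast. *Cebpb*ΔM 4 and 5, on which that contrast rests, had 16 and 13 *Cebpb* reads, beside 13 and 15 in WT 4 and 5. No block could be fitted between the cell types, which share no number. With 2 libraries in 3 of the 4 groups, single libraries limit what can be read here.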
